A study of Homo sapiens with 8 samples.

Results

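RMG1 cells in which ARID1A was knocked out were compared with RMG1 cells that carry a control shRNA, across all genes measured. RMG1 is an established human cell line of ovarian clear cell carcinoma. The comparison takes 4 of the 8 libraries of the series, 2 from the knockout and 2 from the shRNA control, chosen by their labels and not by a measured value. The knockout cells are labelled ARID1A KO and CAPH2 WT and were made with CRISPR, per their source name. The shRNA control cells are labelled ARID1A WT and CAPH2 WT and carry shControl, a short hairpin RNA meant to silence nothing. The knockout cells are not labelled as carrying a hairpin, so loss of ARID1A and absence of the control hairpin cannot be told apart in these 4 libraries alone. Wild-type RMG1 cells (ARID1A WT, CAPH2 WT, no hairpin named) served as the other reference with ARID1A intact. The last group, cells with a hairpin against CAPH2 (ARID1A WT, CAPH2 KD), entered the filter on low counts, the estimate of the spread and statements over all libraries with intact ARID1A. The labels do not say whether the knockout is a single clone or whether the paired libraries are separate cultures. The p-values therefore rest on the scatter of these libraries alone, and that scatter may be technical.

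ARID1A is a large DNA-binding subunit of the canonical BAF form of SWI/SNF, a complex that uses ATP to slide and evict nucleosomes and so opens enhancers and promoters. ARID1B is its paralog and takes the same place in other copies of the complex. ARID1A is one of the genes most often inactivated in ovarian clear cell carcinoma, a tumour with a transcript profile of kidney-like and liver-like secreted proteins. CAPH2, the product of NCAPH2, is a subunit of condensin II, which folds chromosomes.

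The 4 libraries held 32831617 to 37378691 counts each and the wild-type libraries 24559547 and 27144974. Within-group Pearson correlations of log2 CPM, where CPM are counts scaled to a common library total, lay between 0.981 and 0.987. The chi-square per degree of freedom was 5.35 between the knockout libraries, 4.31 between the shRNA control libraries and 19.9 between the wild-type libraries, so no library repeated another within sampling noise and the wild-type pair was the most uneven of these 3. Levels below are CPM after scaling by trimmed means of M values (TMM). They are not divided by gene length, so they are compared between libraries and not between genes. In bulk RNA, fewer cells of a type and less RNA per cell cannot be told apart. The 6 epithelial and line markers measured, EPCAM, CDH1, KRT8, KRT18, KRT7 and PAX8, summed to 2244.9 and 2276.2 CPM in the knockout and 2342.3 and 2321.2 CPM in the shRNA control. Of 9 fibroblast markers, 2 could be tested and LUM was called higher, with a summed level of 1.15 and 1.10 CPM in the knockout against 0.495 and 0.419 CPM, while COL1A2 and COL3A1 were at 0 in all 4 libraries. Of 9 leukocyte markers, 3 could be tested, 1 rose and 1 fell, and CD3E, CD3D and TYROBP were at 0 in all 4 libraries. The leukocyte sum was 5.37 and 4.33 CPM in the knockout and 2.81 and 3.85 CPM in the shRNA control. PTPRC, which encodes CD45, made up much of the knockout sum, at 2.25 and 1.98 CPM against 0.0309 and 0.0279 CPM. Of 5 endothelial markers found in the table, TEK alone could be tested and it fell, and VWF, KDR and CLDN5 were at 0.

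ARID1A transcripts were lower but present in the knockout. ARID1A (ENSG00000117713, chromosome 1) stood at 6.66 and 5.61 CPM in the knockout libraries and at 9.87 and 9.68 CPM in the shRNA control libraries. The groups did not overlap, and both wild-type libraries, at 8.80 and 12.1 CPM, also lay above the knockout. The log2 fold change was −0.67 (SE 0.16, edgeR adjusted p = 0.00474) against the shRNA control and −0.77 (SE 0.16, edgeR adjusted p = 0.00274) against wild type. Each SE given here is the absolute log2 fold change divided by the square root of the F value of edgeR's test. Such an SE may be too small where a group holds few counts. Between the references ARID1A differed by −0.10 (shRNA control minus wild type, SE 0.15, edgeR adjusted p = 0.71). The call against the shRNA control was lost without knockout library 2 (−0.55, edgeR adjusted p = 0.0535). The run of neighbouring genes that holds ARID1A, HMGN2 to PHACTR4, had a median log2 fold change of −0.18, and −0.12 against wild type. The adjoining run, PITHD1 to DHDDS, had −0.64 and −0.74, close to the values of ARID1A. Whether the fall of ARID1A belongs to that shift was not tested. Counts per gene do not show which part of a transcript is left, so they say nothing about the protein.

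Of 26 SWI/SNF subunits tested, ARID1A included, 2 rose and 9 fell against the shRNA control, with a median of −0.11, and against wild type 6 rose and 6 fell. The share called in either direction against the shRNA control, 42.3%, was near the 41.8% of all genes tested. SMARCA2, one of the pair of alternative ATPases, stood at 84.7 and 89.4 CPM in the knockout and 41.7 and 40 CPM in the shRNA control. Its rise of 1.09 (SE 0.06, edgeR adjusted p = 8.05e-08) was also called against wild type (0.77), though the shRNA control lay below wild type by −0.32. ARID2, the ARID subunit of the PBAF form, rose by 0.42 (SE 0.06) and by 0.46 against wild type. DPF3, a histone-reading subunit, fell from 2.72 and 3.18 CPM to 0.575 and 0.365 CPM (−2.65, SE 0.33, edgeR adjusted p = 6.75e-05) with −2.76 against wild type. The paralog ARID1B stood at 13.3 and 14.4 CPM against 17.2 and 16.2 CPM (−0.27, SE 0.09, edgeR adjusted p = 0.0312). That call was lost with DESeq2 (−0.26, adjusted p = 0.114), with scaling by library totals alone, without a filter on low counts and without any 1 of the 4 libraries compared. SMARCA4, the alternative ATPase, fell by 0.24 against the shRNA control and differed by 0.06 from wild type, where it was not called. SS18 and BCL7B showed the same pattern, called lower against the shRNA control and not called against wild type. SS18 lies on chromosome 18 in the run ANKRD29 to MOCOS, with medians of −0.36 against the shRNA control and −0.07 against wild type. Whether its fall belongs to that shift was not tested. NCAPH2, the target of the other arm, did not pass the test here, at 21.0 and 23.9 CPM against 24.0 and 25.8 CPM (−0.15, SE 0.09, edgeR adjusted p = 0.218).

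In all, 16657 genes passed the filter on low counts and 6964 of them (41.8%) changed against the shRNA control, 3485 up (20.9%) and 3479 down (20.9%), at a Benjamini-Hochberg adjusted p under 0.05 in edgeR's quasi-likelihood test with 2 libraries per group. At least 2-fold changes numbered 1813 (10.9%), with 854 up (5.13%) and 959 down (5.76%). The libraries of both groups did not overlap for 72.6% of all genes tested, so a lack of overlap is common here. The median absolute log2 fold change of the called genes was 0.57, so most calls were of modest size. The share called depended on the level: 16.3% among the 25% of genes with the lowest mean CPM and 61.4% among the 25% with the highest. Among 12930 protein-coding genes 3222 rose (24.9%) and 3090 fell (23.9%). Counts of list members below are to be read beside these shares. In the same fit, 5751 genes (34.5%) changed between the knockout and wild type, 16.8% of all up and 17.8% down, with 5.11% up and 4.89% down at least 2-fold. Between the shRNA control and wild type 3205 genes (19.2%) differed, 9.13% of all higher and 10.1% lower in the shRNA control. At least 2-fold differences between the references numbered 454 (2.73%), 1.78% higher and 0.949% lower.

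The knockout libraries are shared by both comparisons, so a noise component of theirs enters both. With that limit, 4169 genes (25% of those tested) were called in the same direction against both references, 1968 up (11.8%) and 2201 down (13.2%). They are 59.9% of the genes called against the shRNA control and 72.5% of those called against wild type. Changes that met the 2-fold bound and those that did not were carried over as follows: 1346 of 1813 genes (74.2%) with at least a 2-fold change against the shRNA control were called the same way against wild type, and 2823 of 5151 (54.8%) of the smaller ones. Changes of at least 2-fold against both references numbered 1091, 529 up and 562 down. In 3872 of the 4169 genes both knockout libraries lay outside the range of all 6 libraries with intact ARID1A, 1843 above and 2029 below, where 39.5% of all genes tested did so. The shRNA control and wild-type libraries were the references of those calls, so a high share is built in. Only the CAPH2 knockdown libraries add to it. The contrast of shRNA control minus wild type, which is the difference between both knockout effects, was not called for 3100 of the 4169 genes and was called for 1069. A p that misses the threshold does not show that the references were equal.

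A further 2671 genes were called only against the shRNA control and 1458 only against wild type. Of the first set 1133 differed between the references by the test, and of the second 596 did so. Another 124 genes were called in opposite directions, 59 higher than the shRNA control and lower than wild type and 65 the other way round.

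**Figure D1:**
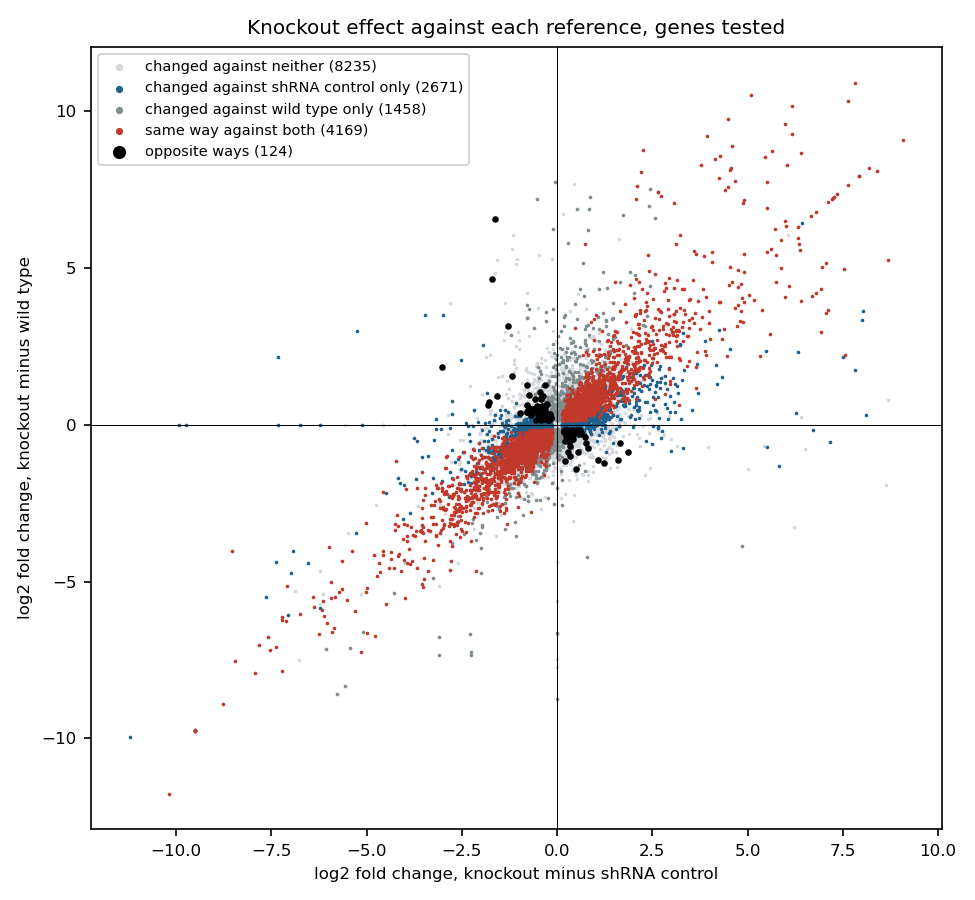
Each point is 1 of the 16657 genes tested, with the log2 fold change of the knockout against the shRNA control on the horizontal axis and against wild type on the vertical axis. Red points (4169 genes) were called the same way against both references, blue (2671) and dark grey (1458) against a single reference, light grey against none, and the 124 black points in opposite ways; both axes use the same knockout libraries.

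Several genes that were close to silent in the shRNA control were well expressed in the knockout. LAMA4, the alpha-4 chain of laminins found in vessel and muscle basement membranes, stood at 29.9 and 29.6 CPM in the knockout and at 0.0309 and 0.251 CPM in the shRNA control. ALDH1A1, a retinaldehyde dehydrogenase that makes retinoic acid, stood at 59.0 and 65.5 CPM against 0.557 and 0.921 CPM. NOSTRIN, an adaptor that moves nitric oxide synthase off the membrane, stood at 18.0 and 18.3 CPM against 0.0309 and 0.223 CPM. In each of these the knockout libraries lay far above all 6 libraries with intact ARID1A, the highest of which held 0.756 CPM for LAMA4, 1.61 CPM for ALDH1A1 and 0.826 CPM for NOSTRIN. The log2 fold changes were 7.63 (SE 0.31, edgeR adjusted p = 8.39e-09), 6.37 (SE 0.16, edgeR adjusted p = 2.67e-10) and 7.07 (SE 0.54, edgeR adjusted p = 1.44e-06). Against wild type they were 10.33, 5.59 and 5.16, and none of the 3 differed between the references by the test. LAMA4 and NOSTRIN had only 10 and 9 counts in the shRNA control, so their SE may be too small.

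For rises from 0 to 3 counts the fold rests on those few counts. UGT3A2, a sugar-transferring enzyme, had 157 counts in the knockout and 0 in the shRNA control, at least 47.7-fold higher when the shRNA control is set to 3 counts in all. LGALS1, the sugar-binding galectin-1, had 474 counts against 1, a ratio of 432 with a 95% counting interval of 77.1 to 17090.7. C2orf80 had 565 against 2 counts, a ratio of 257 (70.9 to 2130.2). BNC1, a zinc finger factor of basal epithelia, reached a ratio of 90.6 (24.8 to 754) and BRSK2, a kinase of neurons and islet cells, 82.4 (22.5 to 686). These intervals cover counting error only, because amplified reads are not independent molecules. The rest of the 12 largest rises among protein-coding genes were TM4SF18, a membrane protein (6.96, SE 0.39), SLC12A3, the thiazide-sensitive salt transporter of the distal kidney tubule (6.35, SE 0.60), SRGN, the core protein of a secretory granule proteoglycan (6.16, SE 0.48), and INSYN2B (6.10, SE 0.63). All 12 were also called higher against wild type. By a rule of a mean of at least 5 CPM in the knockout and under 0.1 CPM in both shRNA control libraries, 4 genes were switched on: LGALS1, C2orf80, TM4SF18 and NRG1, of which LGALS1 and C2orf80 were also under 0.1 CPM in all wild-type and CAPH2 knockdown libraries.

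The 12 largest falls were of the same order. TRHDE, the enzyme that degrades thyrotropin-releasing hormone, fell from 32.4 and 33.7 CPM to 0.411 and 0.652 CPM (−5.94, SE 0.15, edgeR adjusted p = 2.32e-10). MAP1B, a microtubule-binding protein of growing neurites, fell from 42.3 and 39.2 CPM to 1.12 and 1.38 CPM (−5.01, SE 0.14). BRINP1, a protein of differentiating neurons, fell from 22.4 and 20.4 CPM to 0.575 and 0.444 CPM (−5.39, SE 0.16). No knockout library came near any of the other 6 for these 3 genes, but the shRNA control was itself above wild type, by 0.92 for TRHDE, 1.89 for MAP1B and 1.38 for BRINP1, so the falls against wild type were −5.02, −3.13 and −4.01. PDE10A, which degrades cyclic AMP and cyclic GMP, had 508 counts in the shRNA control and 2 in the knockout, a ratio of 279 (76.8 to 2308.6), and stood at 8.30 and 6.44 CPM in wild type. ALOX5, the enzyme that starts leukotriene synthesis, fell from 4.92 and 4.94 CPM to 0.219 and 0.157 CPM (−4.69, SE 0.25), with a fall of 4.42 against wild type. LRATD1 fell from 404 to 3 counts, a ratio of 148 (50.2 to 720), ZNF737 from 148 to 2 (81.2, interval 22.1 to 677), and GALNT18, an enzyme that starts mucin-type glycans, from 7.27 and 6.5 CPM to 0.0822 and 0.183 CPM (−5.65, SE 0.30).

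For 4 of the largest falls the references differed widely. LGALS14, a placental galectin, stood at 26.7 and 25.4 CPM in the shRNA control and 0.0822 and 0.0522 CPM in the knockout (−8.53, SE 0.22), but at 1.24 and 1.05 CPM in wild type, a difference between the references of 4.51 (edgeR adjusted p = 3.65e-08). Its fall against wild type was smaller and was called too (−4.01, edgeR adjusted p = 9.83e-06). ASZ1, a germ-cell protein that guards against transposons, had 191 counts in the shRNA control, 1 in the knockout and 0 in wild type. RIOX1, a chromatin-bound hydroxylase, had 223 counts in the shRNA control and 0 in the knockout, at least 81.6-fold lower, and 0 in both wild-type and both CAPH2 knockdown libraries. AC104109.3 had 260 and 0 counts, at least 95.1-fold lower, 0 in wild type, and 131 in the CAPH2 knockdown, all from 1 library. The calls of RIOX1 and AC104109.3 were lost with DESeq2 (adjusted p = 0.114 and 0.106), and neither was called against wild type. RSEM divides reads among similar copies, so the values of LGALS14, ZNF737 and RIOX1 are uncertain for single genes.

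**Figure D2:**
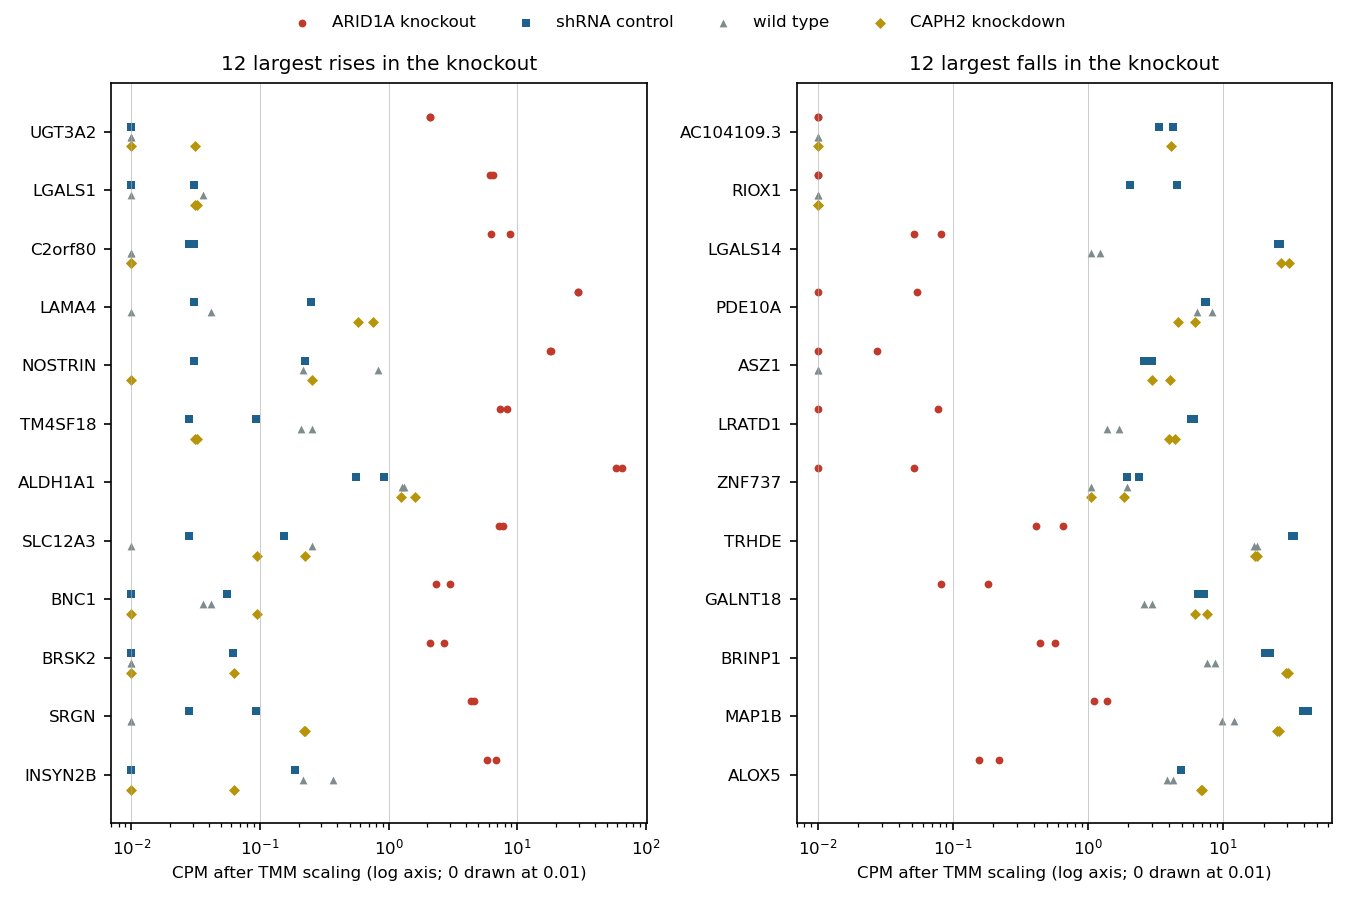
CPM after TMM scaling on a log axis for the 12 largest rises (left) and 12 largest falls (right) among protein-coding genes, 1 point per library, with libraries at 0 drawn at 0.01. In the left panel the red knockout points stand to the right of every other library, and in the right panel ASZ1, RIOX1 and AC104109.3 are also at 0 in both wild-type libraries.

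The promoters of 1 strong rise and 1 strong fall are shown because their content of CG pairs, the sites of DNA methylation, lay near the typical values of the groups they belong to. Sequences run 5′ to 3′ from 250 bases before to 50 bases after the start of the gene in RefSeq on GRCh38.p14, with each CG in capitals. ALDH1A1 lies at chr9:72953004-72953303 on the minus strand and TRHDE at chr12:72272120-72272419 on the plus strand.
ALDH1A1: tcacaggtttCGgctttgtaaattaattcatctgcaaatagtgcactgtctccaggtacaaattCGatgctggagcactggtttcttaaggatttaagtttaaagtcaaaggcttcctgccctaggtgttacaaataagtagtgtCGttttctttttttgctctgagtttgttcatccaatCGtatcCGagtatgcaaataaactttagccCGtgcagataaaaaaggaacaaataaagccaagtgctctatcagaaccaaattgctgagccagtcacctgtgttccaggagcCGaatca
TRHDE: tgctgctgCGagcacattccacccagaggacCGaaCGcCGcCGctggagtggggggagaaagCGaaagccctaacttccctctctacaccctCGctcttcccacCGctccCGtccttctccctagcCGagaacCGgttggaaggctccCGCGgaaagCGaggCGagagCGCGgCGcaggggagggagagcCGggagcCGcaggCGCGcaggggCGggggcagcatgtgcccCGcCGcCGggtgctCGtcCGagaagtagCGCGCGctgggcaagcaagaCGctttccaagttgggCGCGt
The ALDH1A1 promoter holds 7 CG pairs and that of TRHDE 34. Over 11180 tested genes with such a promoter the median was 26 CG pairs. It was 19 for the 580 that rose at least 2-fold and 25 for the 605 that fell at least 2-fold. Among the 12 largest rises, the 9 with a promoter in the table had a median of 7, ranging from 2 to 50, and among the 12 largest falls the 8 with one had a median of 32, ranging from 2 to 39. These counts describe letters in a window and no methylation was measured here.

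Several chemokine genes rose against both references. Of 19 tested members of the NF-kB and inflammatory cytokine list, 10 rose and 2 fell against the shRNA control, with a median log2 fold change of 1.07 beside −0.01 over all genes tested. Against wild type 14 rose and 1 fell, and 10 rose against both. The median dropped to 0.47 when only genes with a mean of at least 1 CPM were kept and to 0.69 without shRNA control library 2. CXCL1, CXCL2, CXCL3 and CXCL8 are secreted ligands of the receptors CXCR1 and CXCR2 on neutrophils. CXCL1 stood at 22.5 and 22.5 CPM in the knockout and 3.65 and 3.27 CPM in the shRNA control, CXCL8 at 34.7 and 35.4 CPM against 4.27 and 6.22 CPM, and CXCL2 at 12.7 and 13.3 CPM against 1.36 and 1.73 CPM. All knockout values exceeded all shRNA control values, with log2 fold changes of 2.70 (SE 0.12), 2.73 (SE 0.14) and 3.07 (SE 0.22). CXCL3 had 30 counts in the knockout and 0 in the shRNA control, at least 9.11-fold higher. CXCL1 was also higher in the shRNA control than in wild type, by 0.91 (edgeR adjusted p = 0.00191), so its rise against wild type was 3.62.

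The promoters of these 4 chemokine genes, neighbours on chromosome 4, are shown because each holds 1 match to GGANTTTCC, a form of the NF-kB binding motif, searched on both strands. They are RefSeq promoters on GRCh38.p14, CXCL1 at chr4:73869143-73869442 (plus strand), CXCL2 at chr4:74099146-74099445 (minus), CXCL3 at chr4:74038640-74038939 (minus) and CXCL8 at chr4:73740319-73740618 (plus), with the match in capitals.
CXCL1: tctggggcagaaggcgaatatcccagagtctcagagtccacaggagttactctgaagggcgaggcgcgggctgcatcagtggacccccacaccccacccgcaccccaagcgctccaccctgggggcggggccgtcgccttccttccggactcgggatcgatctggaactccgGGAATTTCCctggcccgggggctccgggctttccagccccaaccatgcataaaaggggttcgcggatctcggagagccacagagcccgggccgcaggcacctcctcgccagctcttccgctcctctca
CXCL2: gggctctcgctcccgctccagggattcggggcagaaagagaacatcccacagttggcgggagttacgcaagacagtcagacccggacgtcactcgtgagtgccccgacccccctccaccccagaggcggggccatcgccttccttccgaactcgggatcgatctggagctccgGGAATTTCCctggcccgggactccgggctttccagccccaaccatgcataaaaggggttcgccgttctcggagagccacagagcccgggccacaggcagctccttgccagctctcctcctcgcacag
CXCL3: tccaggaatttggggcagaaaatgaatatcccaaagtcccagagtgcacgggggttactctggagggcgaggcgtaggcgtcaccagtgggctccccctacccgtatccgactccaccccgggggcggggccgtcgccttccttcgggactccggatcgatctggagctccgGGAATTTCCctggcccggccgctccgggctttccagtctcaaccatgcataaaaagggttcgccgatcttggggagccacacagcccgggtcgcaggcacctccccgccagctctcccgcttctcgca
CXCL8: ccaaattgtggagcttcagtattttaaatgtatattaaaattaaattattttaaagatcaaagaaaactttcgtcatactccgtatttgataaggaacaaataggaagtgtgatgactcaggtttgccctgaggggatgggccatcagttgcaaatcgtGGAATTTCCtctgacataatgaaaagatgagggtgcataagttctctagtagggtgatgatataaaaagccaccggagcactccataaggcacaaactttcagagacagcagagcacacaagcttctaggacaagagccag
The match starts at base −78 for CXCL1 and CXCL3, −77 for CXCL2 and −91 for CXCL8, counted from the start of the gene. Of 16 tested list members with a RefSeq promoter, 9 held the motif (the 4 above, ICAM1, IL6, NFKB1, NFKBIA and TNFAIP3), and 179 of all 11180 promoters (1.6%) did. The list was assembled from known targets of NF-kB, so this share says how it was assembled. A match is a description and binding was not measured.

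Other members of that list are signalling and feedback genes. BIRC3, a ubiquitin ligase bound to TNF receptors, stood at 181.2 and 167.9 CPM in the knockout and 37.2 and 42.2 CPM in the shRNA control (2.13, SE 0.09), and rose by 2.17 against wild type. TNF stood at 8.27 and 8.74 CPM against 2.75 and 2.68 CPM (1.65, SE 0.20), and CSF1, the macrophage growth factor, at 8.55 and 8.43 CPM against 2.13 and 2.48 CPM (1.87, SE 0.19). NFKBIA, the inhibitor that holds NF-kB in the cytoplasm, rose by 0.68 (SE 0.12). In all of these the libraries of both groups were apart. TNFAIP2 went the other way, from 143.1 and 158.5 CPM to 73.3 and 65.4 CPM (−1.12, SE 0.07), also called against wild type. IL6 was not called here, at 89.1 and 89.3 CPM against 96.8 and 92.9 CPM (−0.09, SE 0.07, edgeR adjusted p = 0.339), but was higher than wild type by 0.39, where the shRNA control was higher too by 0.48.

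Growth factor ligands, receptors and binding proteins moved in both directions. Of 30 genes tested, 13 rose and 10 fell, with a median of 0.31, and 9 of the rises and 7 of the falls were called against wild type as well. IGFBP3, which binds insulin-like growth factors in the medium, stood at 1676.7 and 1666.9 CPM in the knockout and 204.8 and 203.1 CPM in the shRNA control (3.04, SE 0.06, edgeR adjusted p = 5.36e-11). IGFBP1, of the same family, fell from 100.5 and 103.6 CPM to 13.9 and 10.9 CPM (−3.04, SE 0.11). IGF1R, the receptor of these growth factors, fell from 33.3 and 31.5 CPM to 4.44 and 4.05 CPM (−2.93, SE 0.13). The changes of IGFBP3 were nearly alike against both references (3.11 against wild type), while IGFBP1 and IGF1R were higher in the shRNA control than in wild type by 1.2 and 0.82. Among ligands of the EGF receptor family, AREG stood at 326.0 and 337.6 CPM against 115.1 and 119.0 CPM (1.5, SE 0.05), BTC rose by 1.33 (SE 0.17), and NRG1, a ligand of ERBB3 and ERBB4, stood at 6.03 and 4.02 CPM against 0.0619 and 0.0837 CPM (6.02, SE 0.62). The receptors ERBB3 (−1.46, SE 0.05), ERBB2 (−0.85, SE 0.07) and EGFR (−0.67, SE 0.06) fell, each also against wild type by a smaller amount (−0.62, −0.51 and −0.26). AXL, a receptor kinase of mesenchymal cells, stood at 5.78 and 4.96 CPM against 0.681 and 0.726 CPM (2.92, SE 0.28). MET, the receptor of hepatocyte growth factor, rose from 298.7 and 309.1 CPM to 432.1 and 432.9 CPM (0.51, SE 0.05). Among other ligands KITLG, which binds KIT, rose by 2.15 (SE 0.08), PDGFA fell by 1.48 (SE 0.17), and HBEGF, FGF18 and PDGFC were not called.

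Of 24 AP-1 and immediate early genes 11 rose and 5 fell against the shRNA control, and 8 rose and 5 fell against wild type. The ERK inhibitors SPRY2 (1.25, SE 0.09) and DUSP5 (1.23, SE 0.06) rose against both, although both were lower in the shRNA control than in wild type, by −0.51 and −0.75. DUSP6, another ERK phosphatase, stood at 13.3 and 13.8 CPM in the knockout, 10.9 and 10.7 CPM in the shRNA control and 26.3 and 27.5 CPM in wild type, so it was called higher against the former (0.33, SE 0.09) and lower against the latter (−0.99). DUSP4 fell from 15.9 and 17.0 CPM to 3.97 and 3.47 CPM (−2.15, SE 0.12) and by 1.65 against wild type.

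Markers of clear cell carcinoma and of the Mullerian duct were mostly lower. Of 19 tested, 13 fell and 5 rose, with a median of −0.60, and 12 of the falls were shared with the wild-type comparison, in which 14 fell and 2 rose. CDH6, a cadherin of kidney tubules and ovarian tumours, stood at 5.34 and 5.87 CPM in the knockout, 89.8 and 90.0 CPM in the shRNA control and 258.1 and 257.2 CPM in wild type. The 3 groups were fully apart, with log2 fold changes of −4 (SE 0.07, edgeR adjusted p = 3.47e-11) and −5.52 for the knockout and a difference of −1.52 between the references. GLRX, which reduces glutathionylated proteins, fell from 74.7 and 72.4 CPM to 13 and 11 CPM (−2.62, SE 0.09). FXYD2, a regulatory subunit of the kidney sodium pump, fell from 63.7 and 66.3 CPM to 11.6 and 11.1 CPM (−2.52, SE 0.09), by 2.60 against wild type, with no call between the references (−0.08). ARID5B, another ARID-domain protein, fell from 513.7 and 516.1 CPM to 133.0 and 132.6 CPM (−1.95, SE 0.05). SOX17, a factor of Mullerian epithelium, fell by 1.13 (SE 0.13), while PAX8 fell by only 0.25 (SE 0.05) and was not called against wild type (0.07). GPC3 and NAPSA were among the 5 that rose, and both were called lower against wild type.

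Liver-type secreted proteins formed the list with the lowest median, −2.08 over 13 tested members, of which 10 fell and 1 rose, while 9 fell and 3 rose against wild type. The median was −0.83 when only genes with a mean of at least 1 CPM were kept. SERPINA1, the protease inhibitor alpha-1-antitrypsin, fell from 35.8 and 34.7 CPM to 2.11 and 1.77 CPM (−4.18, SE 0.10, edgeR adjusted p = 1.94e-10) and by 3.24 against wild type. CP, the copper carrier ceruloplasmin, fell from 901.5 and 960.8 CPM to 223.2 and 217.9 CPM (−2.08, SE 0.06). The fibrinogen chain genes were low in all groups: FGA had 39 counts in the shRNA control and 0 in the knockout, at least 14.3-fold lower, and FGB 96 and 2 counts, a ratio of 52.7 (14.2 to 441). APOE, a lipid carrier, was the member that rose, from 62.1 and 65.3 CPM to 135.8 and 144.0 CPM (1.13, SE 0.06), and by 1.2 against wild type.

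The S100 and annexin genes, which encode small calcium-binding and calcium-dependent membrane-binding proteins, had 17 falls and 1 rise among 21 tested, with a median of −0.83. Against wild type 14 fell, all of them among the 17, and 3 rose. S100A14 fell from 53.8 and 54.6 CPM to 10.5 and 9.94 CPM (−2.40, SE 0.13), S100A9 from 5.75 and 6.22 CPM to 1.07 and 0.835 CPM (−2.65, SE 0.26), and S100P from 1.79 and 1.26 CPM to 0.0822 and 0.104 CPM (−3.97, SE 0.48). ANXA1 was the exception, at 129.8 and 129.7 CPM against 46.2 and 46.4 CPM (1.49, SE 0.06), with 30.2 and 28.4 CPM in wild type. ANXA5 was called lower than the shRNA control (−0.46) and higher than wild type (0.29), because the shRNA control exceeded wild type by 0.74.

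Kidney-type transport genes moved in both directions, 8 up and 10 down of 23, and all 18 were called the same way against wild type. AQP1, a water channel of the proximal tubule, stood at 7.31 and 7.65 CPM in the knockout and 0.0619 and 0.251 CPM in the shRNA control (5.51, SE 0.44). SLC17A1, a phosphate and urate transporter, rose from 0.619 and 0.558 CPM to 6.08 and 5.56 CPM (3.30, SE 0.27), and SLC4A4, a bicarbonate cotransporter, by 2.95 (SE 0.36). FXYD3, a sodium pump regulator, fell from 13.8 and 13.3 CPM to 1.01 and 1.44 CPM (−3.46, SE 0.16), and SLC34A2, a phosphate transporter of secretory epithelia, by 1.10 (SE 0.06).

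Of 25 junction and keratin genes 12 fell and 1 rose, with a median of −0.28, and 8 of the falls and the rise were shared with the wild-type comparison. CDH1, which encodes E-cadherin, stood at 300.4 and 290.3 CPM in the knockout and 178.5 and 179.7 CPM in the shRNA control (0.72, SE 0.05) and rose by 0.96 against wild type. DSP, the desmosome linker desmoplakin, fell from 588.8 and 554.8 CPM to 296.1 and 282.5 CPM (−0.98, SE 0.05), with 351.0 and 347.8 CPM in wild type. KRT23 fell from 380.8 and 412.5 CPM to 115.9 and 121.6 CPM (−1.74, SE 0.07), and was higher still in wild type (749.4 and 643.4 CPM). KRT8 fell by 0.67 (SE 0.05) and 0.70 against the shRNA control and wild type.

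Among 12 mesenchymal genes 5 rose and 4 fell, and the levels in the references differed widely for VIM and CDH2. VIM, the filament protein vimentin, stood at 52.5 and 45.5 CPM in the knockout, 38.3 and 32.4 CPM in the shRNA control and 5.04 and 6.37 CPM in wild type. Its log2 fold change was therefore 0.47 (SE 0.10, edgeR adjusted p = 0.00335) against the shRNA control and 3.09 against wild type, with 2.62 between the references (edgeR adjusted p = 4.48e-07). CDH2, or N-cadherin, stood at 7.07 and 7.54 CPM, 0.588 and 0.474 CPM, and 0.0413 and 0 CPM in the same order, a rise of 3.78 (SE 0.39) against the shRNA control. ZEB1, a repressor of CDH1 in other cells, rose from 2.04 and 1.2 CPM to 7.31 and 7.15 CPM (2.16, SE 0.26). FN1, encoding fibronectin, fell by 1.03 (SE 0.08) and TNC, encoding tenascin-C, by 1.14 (SE 0.07). CD44 was called higher than the shRNA control (0.33) and lower than wild type (−0.18).

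Of 25 laminin, collagen and other matrix genes 13 fell and 7 rose, with a median of −0.60 against the shRNA control and −0.05 against wild type, since 17 of the 25 were higher in the shRNA control than in wild type and 0 lower by the test. LAMB3, of the epithelial laminin-332, fell from 264.2 and 282.1 CPM to 79.3 and 78.7 CPM (−1.79, SE 0.07), and LAMA5 from 19.8 and 20.7 CPM to 8.30 and 8.25 CPM (−1.29, SE 0.09). Beside LAMA4, LAMA2 (1.76, SE 0.23), LAMB1 (0.78, SE 0.06) and NID2, which links laminin to collagen IV (0.94, SE 0.09), rose. COL4A3 and COL4A4, chains of one collagen IV network, fell by 2.01 (SE 0.18) and 1.91 (SE 0.15), and COL4A1 rose by 0.53 (SE 0.06). COL4A2 stood at 230.9 and 216.1 CPM in the knockout, 229.5 and 229.5 CPM in the shRNA control and 125.6 and 128.4 CPM in wild type, so its rise of 0.82 against wild type had no counterpart here (−0.04, SE 0.06). LAMA3 was the converse, with a fall of 0.94 (SE 0.06) against the shRNA control and a value of −0.01 against wild type.

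Secreted proteases and their inhibitors had 3 rises and 10 falls among 24 tested, and 8 rises and 8 falls against wild type. MMP1, an interstitial collagenase, fell from 19.0 and 19.7 CPM to 1.37 and 1.93 CPM (−3.54, SE 0.14), from a higher level still in wild type (59.2 and 53.6 CPM). MMP7 fell by 1.10 (SE 0.05), and ST14, the membrane protease matriptase, from 63.2 and 61.4 CPM to 16.3 and 15.0 CPM (−2.00, SE 0.07). Its inhibitors SPINT1 (−0.89, SE 0.07) and SPINT2 (−0.72, SE 0.05) fell as well. PLAU, encoding urokinase, stood at 86.3 and 87.9 CPM against 20.0 and 21.2 CPM (2.08, SE 0.07), and rose by 2.14 against wild type. SERPINE2 was called lower here (−0.63) and higher against wild type (0.40). The median of the list, −0.30, became −0.04 without knockout library 2.

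In the list of YAP and TGF-beta targets, 17 genes were tested, of which 4 were higher and 7 lower. PMEPA1, an inhibitor of TGF-beta signalling that the pathway induces, fell from 60.3 and 58.8 CPM to 7.70 and 10.3 CPM (−2.72, SE 0.11), and SMAD7, another, from 7.61 and 8.54 CPM to 2.36 and 2.09 CPM (−1.86, SE 0.20). The receptor gene TGFBR2 fell by 0.57 (SE 0.05), and SKIL and SMAD3 were not called. The YAP targets were split, with AMOTL2 (−0.49, SE 0.08), AJUBA (−0.45, SE 0.06) and LATS2 (−0.24, SE 0.09) lower and CCN1 not called. ANKRD1, another YAP target, stood at 19.5 and 19.5 CPM against 4.70 and 7.81 CPM (1.63, SE 0.20). CCN2, also in the list, had 30 counts in the knockout and 2 in the shRNA control, a ratio of 13.7 (3.47 to 118). It was called higher against both references (3.60 and 3.26). The call against the shRNA control was lost with DESeq2 (3.75, adjusted p = 0.0717) and without either knockout library. PMEPA1, SMAD7, TGFBR2 and ANKRD1 were called the same way against wild type. TGFBI, which stood at 15.6 and 17.0 CPM in the knockout, 7.95 and 8.60 CPM in the shRNA control and 19.2 and 16.4 CPM in wild type, was called higher here alone (0.98, SE 0.12), and the references differed by −1.10.

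**Figure D3:**
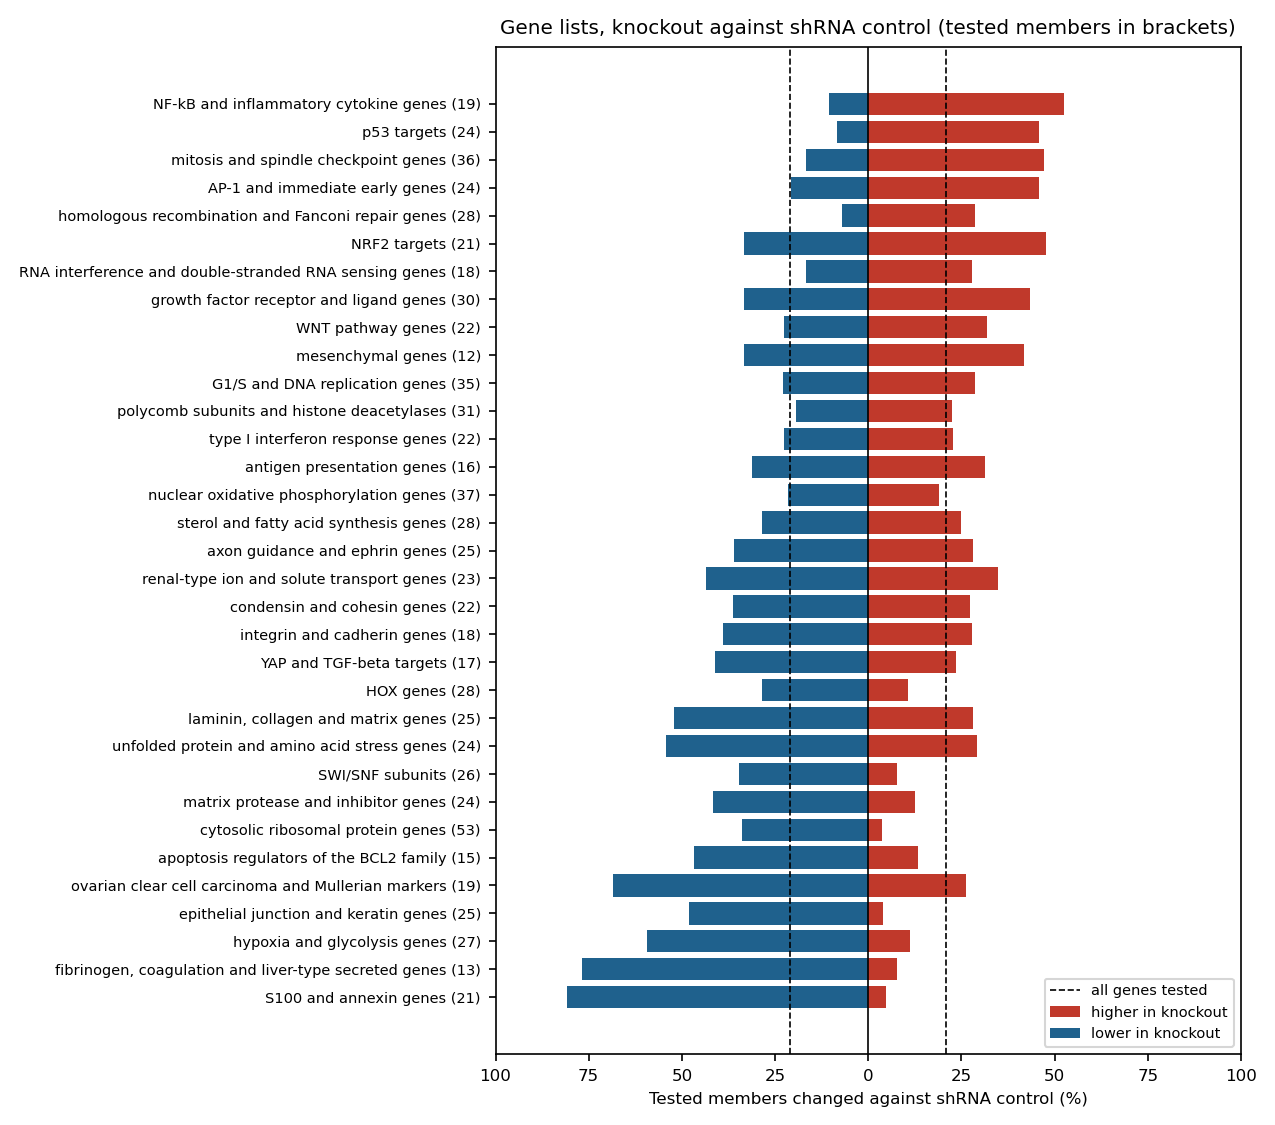
Share of the tested members of 33 gene lists that were called higher (red, to the right) or lower (blue, to the left) in the knockout than in the shRNA control, with the number tested in brackets and dashed lines at the 20.9% of all tested genes called in each direction. The NF-kB and inflammatory list stands at the top and the S100 and annexin list, with 17 of 21 lower, at the bottom.

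Of 27 hypoxia and glycolysis genes tested, 16 fell and 3 rose against the shRNA control (median −0.27), and 10 fell and 3 rose against wild type (median −0.04). In the contrast of the references 15 of the 27 were higher in the shRNA control than in wild type and 2 were lower. NDRG1, a stress-induced gene, stood at 36.7 and 32.1 CPM in the knockout, 157.9 and 150.9 CPM in the shRNA control and 85.8 and 86.3 CPM in wild type (−2.17, SE 0.07, and −1.32). PFKL, a phosphofructokinase, fell by 1.25 (SE 0.08) and 0.59. P4HA1, which hydroxylates collagen, stood at 49.8 and 52.2 CPM, 117.8 and 118.7 CPM, and 51.8 and 54.0 CPM, so the knockout differed from the shRNA control (−1.21, SE 0.05) and not detectably from wild type (−0.05). LDHA, encoding lactate dehydrogenase A, was called lower here (−0.24) and higher against wild type (0.21). VEGFA (−0.80, SE 0.06) and ADM (−1.10, SE 0.09), both secreted and induced by low oxygen, fell against both references by like amounts (−0.76 and −0.97 against wild type), with no call between the references.

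Stress and metabolic lists were mixed. Among 24 genes of the unfolded protein response and amino acid stress 13 fell and 7 rose, and 12 of the falls were shared with the wild-type comparison. TRIB3, a target of ATF4, fell from 49.9 and 49.8 CPM to 17.3 and 16.9 CPM (−1.54, SE 0.07), and ATF4 itself by 0.41 (SE 0.05). SLC3A2, a subunit of amino acid exchangers, fell by 1.01 (SE 0.05). Among 21 NRF2 targets, which serve antioxidant defence, 10 rose and 7 fell. AKR1C1, a ketosteroid reductase, stood at 39.5 and 39.4 CPM against 6 and 5.44 CPM (2.79, SE 0.12), although its close paralogs make the value of a single gene uncertain. SLC7A11, the cystine importer, rose from 20.4 and 18.8 CPM to 61.2 and 68.2 CPM (1.72, SE 0.09), and TXNRD1, thioredoxin reductase, by 1.12 (SE 0.05). Those 3 were called higher against wild type too, and 11 of the 21 were lower in the shRNA control than in wild type. GCLM, a subunit of the enzyme that limits glutathione synthesis, was called higher here (0.53) and lower against wild type (−0.23). HMOX1, heme oxygenase 1, fell against both (−0.58, SE 0.08, here). Of 28 sterol and fatty acid synthesis genes 7 rose and 8 fell, led by FASN, fatty acid synthase, which fell from 49.2 and 51.5 CPM to 22.3 and 24.4 CPM (−1.11, SE 0.12).

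Calls among p53 target genes differed with the reference. Of 24 tested, 11 rose and 2 fell against the shRNA control (median 0.09), while 4 rose and 4 fell against wild type (median 0.08), and 10 of the 24 were lower in the shRNA control than in wild type, with 1 higher. FAS, a death receptor, stood at 22.2 and 21.4 CPM in the knockout, 9.40 and 9.74 CPM in the shRNA control and 18.2 and 22.9 CPM in wild type. It was called against the shRNA control (1.19, SE 0.12, edgeR adjusted p = 9.4e-06) and not against wild type (0.08, edgeR adjusted p = 0.617), and the references differed by −1.11. CDKN1A, the cell cycle inhibitor p21, stood at 41.7 and 40.3 CPM, 25.9 and 26.7 CPM, and 44.5 and 53.5 CPM, and was called higher than the shRNA control (0.64) and lower than wild type (−0.26). MDM2, the ligase that degrades p53, stood at 280.3 and 295.8 CPM, 233.4 and 251.9 CPM, and 322.5 and 312.3 CPM. GDF15, a secreted stress protein, was above both references, at 82.6 and 79.9 CPM against 23 and 23.5 CPM (1.81, SE 0.07) and against 48.7 and 44.4 CPM in wild type (0.80). RRM2B and TNFRSF10B also rose against both.

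Of 36 mitotic genes tested, 17 rose, 6 fell and 13 did not pass, with a median of 0.14, and 12 of the rises were called against wild type as well. MAD2L1, of the spindle checkpoint, stood at 178.1 and 201.8 CPM against 115.9 and 120.0 CPM (0.69, SE 0.08), and AURKA, a spindle kinase, rose by 0.65 (SE 0.06). The run of neighbours that holds MAD2L1, on chromosome 4, had a median of 0.44, so most of its rise was shared by neighbours. For AURKA the run median was 0.09. MKI67, the proliferation antigen, fell from 331.4 and 334.7 CPM to 211.0 and 191.7 CPM (−0.73, SE 0.06) and by 0.91 against wild type. Its run of neighbouring genes on chromosome 10 had a median of −0.58 against the shRNA control, so most of that fall was shared by neighbours. Of 35 G1/S and replication genes 10 rose and 8 fell, while 4 rose and 15 fell against wild type. CCND1, cyclin D1, stood at 310.4 and 312.9 CPM in the knockout, 204.3 and 198.0 CPM in the shRNA control and 286.5 and 277.7 CPM in wild type (0.63, SE 0.05, against the shRNA control). RB1, which holds cells in G1, fell by 0.47 (SE 0.06), and by 0.63 against wild type. Its run of neighbours on chromosome 13, ZC3H13 to ALG11, had medians of −0.39 against the shRNA control and −0.38 against wild type.

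Of 28 homologous recombination and Fanconi genes 8 rose and 2 fell, 35.7% called beside 41.8% of all genes tested. BRCA2 stood at 96.4 and 98.7 CPM in the knockout, 56.6 and 53.8 CPM in the shRNA control and 81.5 and 87.7 CPM in wild type (0.82, SE 0.09, against the shRNA control, and 0.20 with no call against wild type). ATM, the kinase that senses double-strand breaks, fell from 209.2 and 201.0 CPM to 120.2 and 122.5 CPM (−0.76, SE 0.05) and by 1.01 against wild type. Its run of neighbours on chromosome 11, DYNC2H1 to AP002884.3, had medians of −0.54 against the shRNA control and −0.67 against wild type. In the BCL2 family 7 of 15 fell and 2 rose. BCL2 itself stood at 23.1 and 20.6 CPM, 71.9 and 67.4 CPM, and 26.6 and 29.5 CPM in knockout, shRNA control and wild type, a fall of 1.67 (SE 0.08) here and of 0.36 against wild type. BID, a death-promoting member, rose by 1.31 (SE 0.11).

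Condensin and cohesin genes, the machinery named in the title of the series, changed by 0.55 or less on the log2 scale. Of 22 tested, 6 rose and 8 fell against the shRNA control, and 1 rose and 7 fell against wild type. SMC4, an ATPase of both condensins, stood at 430.9 and 460.3 CPM in the knockout, 369.5 and 375.9 CPM in the shRNA control and 520.6 and 523.2 CPM in wild type. It was thus called higher than the shRNA control (0.26, SE 0.05) and lower than wild type (−0.23). SMC2, its partner, and ESCO2 and CDCA5, which act in cohesion, were called higher than the shRNA control only. NCAPG rose against both (0.38, SE 0.06, and 0.17). NCAPD3, of condensin II, fell by 0.22 (SE 0.07) and was not called against wild type (0.08). WAPL, which releases cohesin, STAG1, a cohesin subunit, and ESCO1 fell against both, by 0.29, 0.23 and 0.46 against the shRNA control. ESCO1 lies on chromosome 18 in a run of neighbours with a median of −0.49, so it did not stand out there. WAPL lies on chromosome 10 in the run LRMDA to SNCG, with medians of −0.52 against the shRNA control and −0.57 against wild type. NCAPD3 lies on chromosome 11 in the run TBRG1 to GLB1L3, with −0.44 and −0.37. Against the shRNA control neither WAPL nor NCAPD3 fell by more than its run median.

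Interferon response genes did not move as a group against the shRNA control, with 5 rises and 5 falls among 22 and a median of −0.01. There 45.5% were called, beside 41.8% of all genes tested. Against wild type 6 rose and 5 fell, with a median of 0.39. Between the references 7 of the 22 were higher in the shRNA control and 1 lower, where 9.13% and 10.1% of all genes tested were. IFI6 fell from 15.9 and 16.9 CPM to 4.11 and 3.21 CPM (−2.16, SE 0.17), and IFITM1, which restricts virus entry, rose from 3 and 3.54 CPM to 9.75 and 9.74 CPM (1.57, SE 0.15), both also against wild type. In antigen presentation 5 of 16 genes tested rose and 5 fell against the shRNA control, 62.5% called, with a median of −0.07. Against wild type 8 rose and 2 fell, and between the references 6 were higher in the shRNA control and 1 lower. HLA-DMB, which loads peptides onto class II molecules, stood at 228.6 and 233.6 CPM against 18.5 and 21.2 CPM (3.54, SE 0.10, edgeR adjusted p = 4.07e-10) and rose by 3.40 against wild type. Its partner HLA-DMA rose by 1.5 (SE 0.17). NLRC5, of the same list, fell from 23.2 and 24.1 CPM to 14.2 and 11.7 CPM (−0.87, SE 0.10), with −0.49 against wild type. HLA-B and HLA-C, of the classical class I genes, were called lower than the shRNA control (−0.38 and −0.26) and not against wild type. The references differed for HLA-B (0.45), and HLA-C was not called between them. Class I genes are near-identical in part, which limits single values. Since the reference here carries a hairpin, genes of RNA interference and double-stranded RNA sensing were counted too: 5 of 18 rose and 3 fell, and in the shRNA control against wild type 0 were higher and 3 lower. The share called against the shRNA control, 44.4%, was near the 41.8% of all genes tested. DICER1, which cuts hairpins, stood at 156.4 and 146.8 CPM in the knockout, 189.9 and 189.2 CPM in the shRNA control and 232.1 and 248.7 CPM in wild type.

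Beside ASZ1, RIOX1, AC104109.3 and LGALS14, described above, a few more genes were chosen for a large difference between shRNA control and wild type. MAGEA1, a cancer-testis antigen gene on chromosome X, stood at 1.51 and 1.59 CPM in the knockout, 4.73 and 5.39 CPM in the shRNA control and 0.0826 and 0.0362 CPM in wild type. LBH, a cofactor of transcription, stood at 0.685 and 0.731 CPM, 6.37 and 5.19 CPM, and 0.248 and 0.145 CPM, and DLGAP1, a synaptic scaffold, at 2.55 and 3.03 CPM, 6.74 and 6.84 CPM, and 0.207 and 0.398 CPM. All 3 were therefore called lower than the shRNA control (−1.71, −3.02 and −1.28) and higher than wild type (4.65, 1.85 and 3.16). In the CAPH2 knockdown, whose cells also carry a hairpin, they stood at 4.69 and 4.19 CPM, 2.62 and 1.84 CPM, and 2.21 and 2.06 CPM.

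Other genes had a knockout level close to one of the references. UNC13C, of synaptic vesicle release, stood at 3.07 and 3.58 CPM in the knockout, 3.84 and 4.33 CPM in the shRNA control and 0.537 and 0.145 CPM in wild type, so its rise of 3.31 against wild type had no call here (−0.30, SE 0.28). FAT3, LINC01111 and LINC01109 showed the same pattern, with −0.60, 0.18 and 0.11 here and 3.08, 3.43 and 3.01 against wild type. PAK3, a kinase of neurons, stood at 0 and 0.104 CPM in the knockout, 0.124 and 0.419 CPM in the shRNA control and 6.69 and 5.03 CPM in wild type, and was not called here (−2.29, edgeR adjusted p = 0.0706), though it was with DESeq2 (−2.36, adjusted p = 0.0284). RYR2, a calcium release channel, was the converse, at 0.301 and 0.444 CPM, 3 and 3.80 CPM, and 0.165 and 0.471 CPM, a fall of 3.17 (SE 0.38) here and 0.20 against wild type. PSG3, a pregnancy-specific glycoprotein gene with near-identical relatives, stood at 6.68 and 6.29 CPM, 0.711 and 0.642 CPM, and 5.37 and 5.97 CPM, a rise of 3.26 (SE 0.28) here and 0.19 against wild type.

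**Figure D4:**
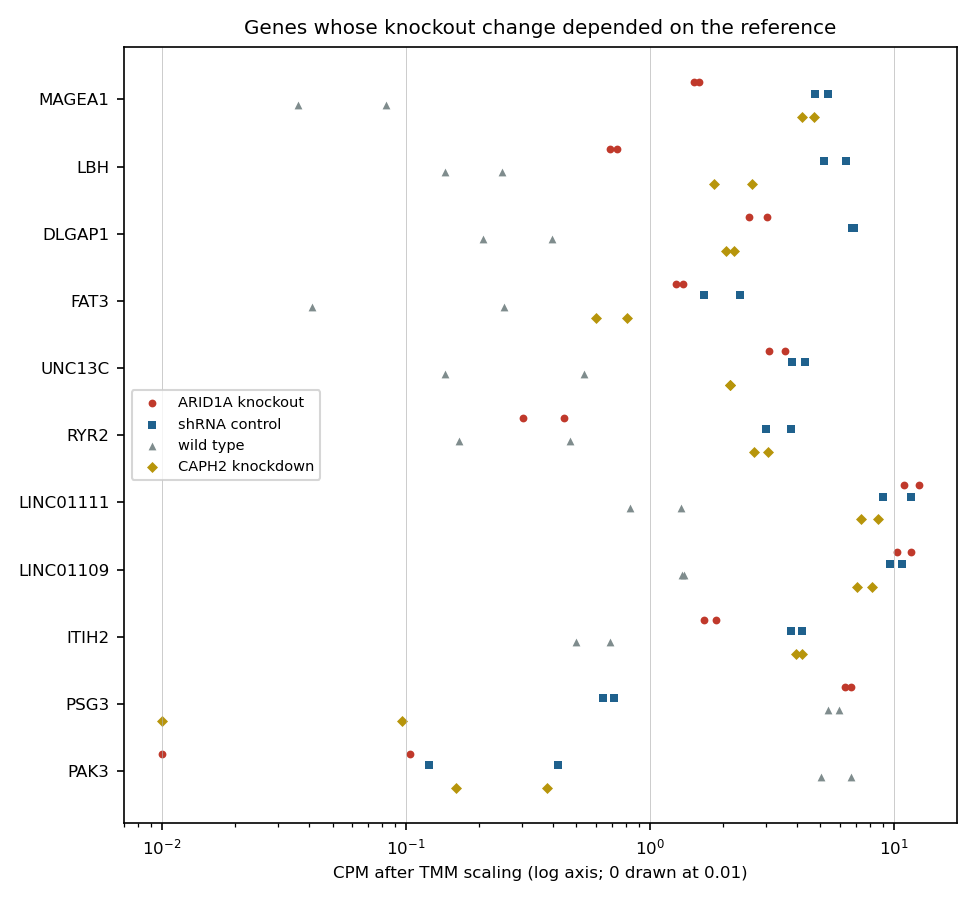
CPM after TMM scaling on a log axis, 1 point per library with 0 drawn at 0.01, for genes whose change in the knockout differed between the references. For MAGEA1, LBH, DLGAP1 and ITIH2 the red knockout points lie between the grey wild-type and the blue shRNA control points, and for RYR2 and PSG3 they lie beside wild type.

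Noncoding genes of at least 1 CPM also changed strongly. PURPL, a long noncoding RNA linked to p53, stood at 16.5 and 18.1 CPM in the knockout and 0.742 and 0.419 CPM in the shRNA control (4.90, SE 0.34) and rose by 4.89 against wild type. TRHDE-AS1, antisense to TRHDE, fell from 11.4 and 9.77 CPM to 0.219 and 0.0261 CPM (−6.41, SE 0.36). The strand setting of the counting is not given in the sources used here, so reads of TRHDE and TRHDE-AS1 cannot be told apart with certainty. GBA3 fell from 1.48 and 2.48 CPM to 0.0548 and 0.104 CPM (−4.57, SE 0.49). The largest fall by the rule, the pseudogene RPL39P3, had 310 and 0 counts and 0 and 26.7 CPM in the wild-type libraries. Its call was lost without any 1 of the 4 libraries compared.

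Small nucleolar RNAs guide chemical changes of ribosomal and other RNAs. Of 162 tested, 33 fell and 1 rose against the shRNA control (median −0.40), where 20.9% of all genes were called in each direction. Against wild type 11 fell and 13 rose (median 0.11), 7 were lower against both references, and 34 were higher and 1 lower in the shRNA control than in wild type. The 21 SNORD116 copies tested, from the imprinted region of chromosome 15, summed to 45.1 and 35.9 CPM in the knockout, 60.6 and 58.2 CPM in the shRNA control and 34.1 and 21.8 CPM in wild type. The knockout lay between the references for this sum, and 5 of the copies were called lower than the shRNA control. These copies are near-identical and overlap host transcripts, so the sum is firmer than any single copy.

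Many changes were shared by neighbours on a chromosome. Genes were placed in 402 runs of about 40 tested neighbours, 16096 genes in all, and the median log2 fold change of each run was taken as a description. Against the shRNA control 33 runs had a median of −0.3 or lower and 21 of 0.3 or higher. Against wild type 25 and 16 did, and 20 and 11 runs passed the bound against both references. Between the references only 3 of the 402 runs lay beyond 0.3. The lowest run, IL18 to KMT2A on chromosome 11, had a median of −0.79, with 27 of 40 genes down and 1 up, and −0.71 against wild type. The run next to it, TMEM25 to VWA5A, had −0.65 and −0.43. PITHD1 to DHDDS on chromosome 1 had −0.64 and −0.74, RCOR1 to TEDC1 on chromosome 14 had −0.55 and −0.72, and C10orf88 to MTG1 on chromosome 10 had −0.58 and −0.71. The highest run, PPHLN1 to CCDC65 on chromosome 12, had 0.64 and 0.74, with 28 of 40 genes up and 0 down against the shRNA control.

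Of 236 tested genes on chromosome 18 130 fell and 9 rose, 86.4% lay below 0, and the median was −0.50. Against wild type the median was −0.27, and the shRNA control exceeded wild type there by a median of 0.24. On chromosome 15 the run from NIPA1 to UBE3A, which holds the SNORD116 copies, differed most between the references, with −0.28 against the shRNA control, 0.44 against wild type and 0.90 between the references. Of the called genes 16.8% lay in runs beyond 0.3, beside 13% of all genes tested. Those runs were picked by the same fold changes, so a higher share of calls there is built in. After the run median was subtracted 95.2% of the called genes kept their sign. Most runs lay within 0.3 and the called genes had a median absolute change of 0.57, so few signs could change. Neither share shows how far single calls depend on shifts shared by neighbours. The 12 largest rises lay in runs with medians from −0.27 to 0.36 and so exceeded their surroundings by far. Some falls named above were partly shared by neighbours. TNFAIP2 (−1.12), BCL2 (−1.67) and SMAD7 (−1.86) lay in runs with medians of −0.55, −0.60 and −0.60.

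**Figure D5:**
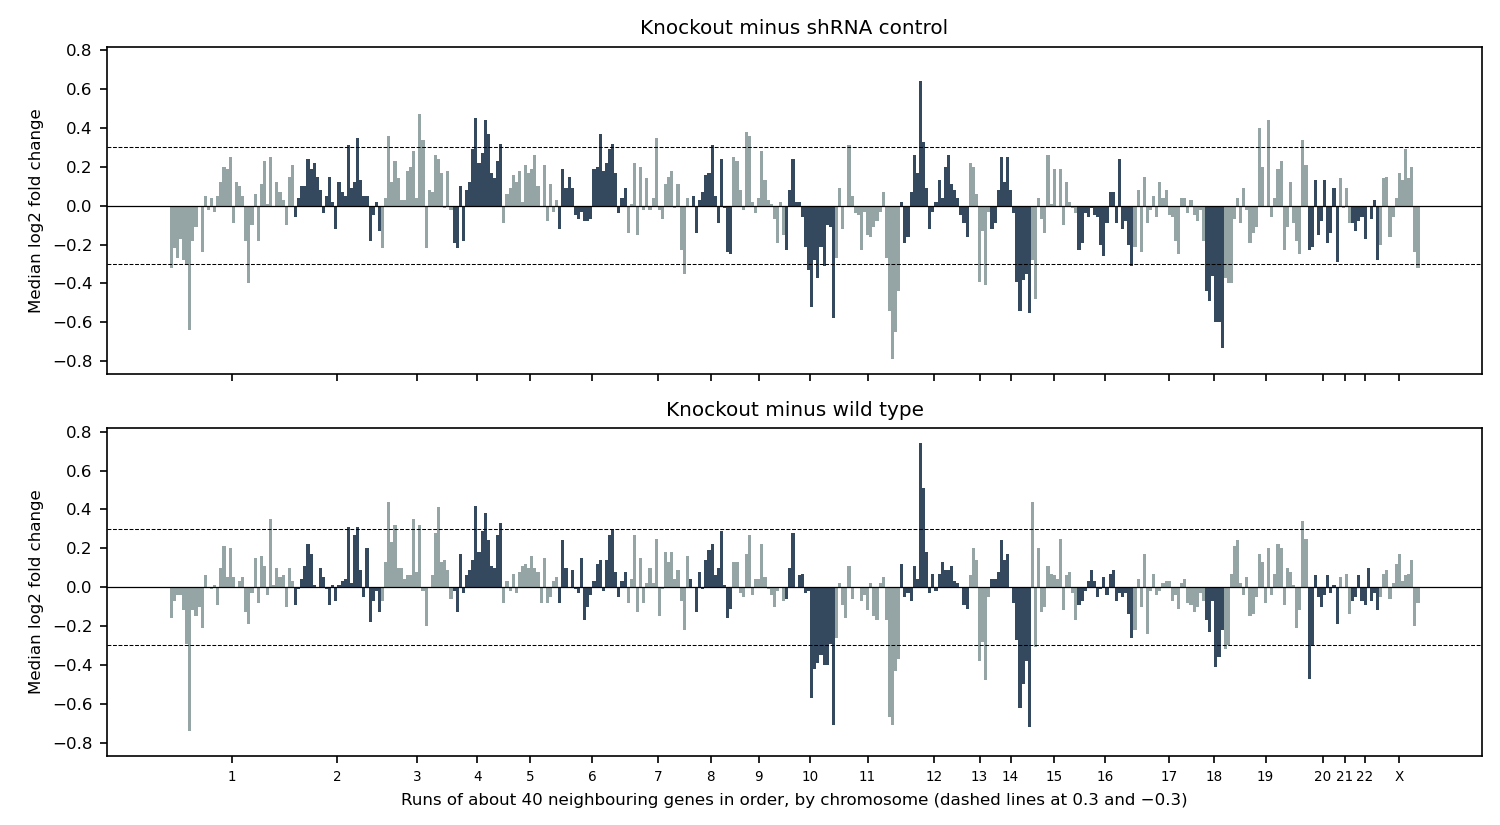
Median log2 fold change of each of 402 runs of about 40 neighbouring genes, in chromosome order, for the knockout minus the shRNA control (top) and minus wild type (bottom); light and dark bars mark alternate chromosomes and dashed lines the bounds of 0.3 and −0.3. The same stretches of chromosomes 1, 10, 11, 12 and 14 stand out in both panels, while chromosome 18 lies lower in the top panel than in the bottom one.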

How the data were processed

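The 8 RMG1 libraries (4 groups of 2) came from Trizol-purified, DNase-treated total RNA and the TruSeq Total RNA kit, per the labels' protocols. The deposited expected counts per gene were made by the authors with Bowtie2 and RSEM 1.2.12 on hg19, per the submitters' processing notes. The annotation release, the strand setting and the Bowtie2 version are not given in the sources read here. As deposited, those values were whole numbers, so no rounding was needed, and 0 columns belonged to other samples. Of 57736 gene IDs, 29952 had a count and 52301 could be given a symbol, 12800 of them from GENCODE 29. That annotation, on GRCh38, was used only for names, gene types and gene order, and no coordinate was carried to or from hg19.

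Genes were kept by edgeR's filterByExpr with the 4 groups, which left 16657, and libraries were scaled by TMM. Differences were tested with edgeR 4.0.16 (quasi-likelihood test, R 4.3.3, limma 3.58.1) on all 8 libraries with group as the sole term, which leaves 4 residual degrees of freedom. The common biological coefficient of variation was 7.74%. Calls are Benjamini-Hochberg adjusted p under 0.05 over all genes tested. The scripts were tested on simulated data. After scaling, 1 count equalled 0.0261 to 0.0413 CPM. Folds against 0 counts use a floor of 3 counts over the group, and ratios with 1 to 3 counts carry exact 95% intervals, both for counting error only.

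Named genes were ARID1A, ARID1B and NCAPH2, the 12 largest non-overlapping rises and falls among protein-coding genes with a mean of at least 1 CPM, and genes at 5 CPM or more in one group and under 0.1 CPM in the other. They also took in the 8 genes of each kind with the largest difference between references, 3 changed members of each of 33 lists, and 3 noncoding rises and falls. Other genes were named after their values were seen. The lists and members were chosen with earlier results of these data known. Replicate numbers did not pair the libraries, since same-numbered libraries deviated together with correlations of −0.024 to 0.03. Alternatives were DESeq2 1.42.0, RLE scaling, library totals alone, other filters on low counts, only the libraries compared, the replicate block, leaving out each library, and, added after seeing the data, a fit without the knockdown libraries. A few genes are not reported here.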

Additional observations from a re-analysis of the deposited data

Results flagged for a closer look

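For 5 genes the test of the difference between both knockout effects was passed and the effects had opposite signs, each past the threshold of edgeR's quasi-likelihood test. MAGEA1 was lower than the shRNA control (−1.71) and higher than wild type (4.65), with a difference between the references of 6.36 (SE 0.37). LBH was lower than the shRNA control (−3.02) and higher than wild type (1.85), with 4.87 (SE 0.36) between the references. DLGAP1 had −1.28 and 3.16, with 4.45 (SE 0.29) between the references. ITIH2, a heavy chain that binds hyaluronan, stood at 1.86 and 1.67 CPM in the knockout, 3.8 and 4.19 CPM in the shRNA control and 0.496 and 0.688 CPM in wild type, a difference between the references of 2.74 (SE 0.26). GPC3, a cell-surface proteoglycan, went the other way, at 6.77 and 5.98 CPM in the knockout, 1.64 and 1.87 CPM in the shRNA control and 10.6 and 12.3 CPM in wild type, with −2.71 (SE 0.18) between the references. These 5 are the genes of this kind among those named by rule, out of 124 called in opposite ways. MAGEA1, LBH, DLGAP1 and ITIH2 were named because the references differed by the test, so that choice fixed their passing it. For any gene called in opposite ways, the difference between the references is also the sum of the sizes of both effects. MAGEA1 has close paralogs, among which RSEM divides reads.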

How the results depend on the processing

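The count of 6964 genes changed against the shRNA control ranged from 5050 to 7697 when 1 library was left out and was 6093 with DESeq2, 7808 with only the libraries compared, 6961 with library totals alone and 6680 without the knockdown libraries, a fit chosen after seeing the data. With the replicate block it was 6827. The libraries share only a number, and the block ended 1 call among the named genes, HRK (adjusted p = 0.0542). With library totals alone 59.1% of the calls were rises, against 50% with TMM, the median of all genes shifted by 0.07, and runs of neighbours at 0.3 or higher numbered 47 in place of 21. The count of genes changed the same way against both references, 4169, stayed between 2855 and 4267 over the alternatives. The count of genes that differed between the references was 3205, with a range of 1555 to 3410 when 1 library was left out, 1555 without shRNA control library 1 and 1599 without library 2. ARID1A ranged from −0.80 to −0.55 when 1 library was left out, and lost its call at −0.55 without knockout library 2. Of 138 other named genes 118 kept their direction and side of the threshold in every setting run, 20 lost or gained a call in some setting and 0 reversed. Medians of lists that lie near 0 changed sign in some settings: the interferon list (0.06 with totals alone), WNT genes (−0.08 with a mean of at least 1 CPM), G1/S genes (−0.03 without knockout library 2), oxidative phosphorylation genes (0.03 with totals alone) and the 3 leukocyte markers (2.81 with only the libraries compared). Depth limits the genes under about 1 CPM, where few counts carry each call.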

Other observations

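Guidance and ephrin genes, which steer cells and axons by contact, were split, with 7 of 25 higher and 9 lower than the shRNA control, and 7 of the rises and 6 of the falls called against wild type too. ROBO2, a receptor for SLIT proteins, stood at 14.1 and 15.2 CPM in the knockout, 2.23 and 2.74 CPM in the shRNA control and 0.496 and 0.543 CPM in wild type (2.56, SE 0.17, against the shRNA control). The ephrin ligands moved apart: EFNB2 rose from 3.34 and 2.79 CPM to 12.8 and 12.4 CPM (2.04, SE 0.2), while EFNA1 (−2.11, SE 0.1) and EFNA5 (−2.14, SE 0.11) fell. The receptor EPHB2 fell from 41.9 and 39.7 CPM to 18.5 and 18.4 CPM (−1.14, SE 0.07). All 5 were called the same way against wild type. Among 22 WNT pathway genes 7 rose and 5 fell. The ligands WNT7B (2.13, SE 0.36) and WNT5B (1.76, SE 0.21) rose and WNT7A fell (−0.79, SE 0.09), each also against wild type. AXIN2, a feedback target of the pathway, was lower than the shRNA control (−0.97, SE 0.27) and not called against wild type (0.28), with a difference of 1.25 between the references.

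HOX genes, which set position along the body axis, gave 3 rises and 8 falls among 28, of which 3 rises and 1 fall held against wild type. The share called against the shRNA control, 39.3%, was near the 41.8% of all genes tested. HOXB7 stood at 142.7 and 139.7 CPM in the shRNA control and at 95.9 and 101.6 CPM in the knockout (−0.52, SE 0.06), but differed from wild type by −0.17 with no call. Among integrins and cadherins 5 of 18 rose and 7 fell, and all 7 falls were shared with the wild-type comparison. ITGA5, the fibronectin receptor chain, fell from 50 and 50.3 CPM to 29 and 26.6 CPM (−0.85, SE 0.07). Of 53 cytosolic ribosomal protein genes 18 fell and 2 rose by small amounts, with a median of −0.13, and 14 of the falls were called against wild type. Here 37.7% were called against the shRNA control, beside 41.8% of all genes tested. RPS25 had a fall of 0.72 (SE 0.1), in a run of neighbours on chromosome 11 with a median of −0.65. Many ribosomal genes have processed copies that can take reads. Among 37 nuclear genes of oxidative phosphorylation 7 rose and 8 fell, near the 20.9% of all genes in each direction. Among 31 polycomb and histone deacetylase genes 7 rose and 6 fell, 41.9% called beside 41.8% of all genes tested. HDAC5 fell most, from 35.2 and 34 CPM to 15.3 and 13.4 CPM (−1.27, SE 0.09).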
